A study of Saccharomyces cerevisiae with 4 samples.

Results

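PUT4 (YOR348C), ATO3 (YDR384C) and ARO9 (YHR137W) are yeast genes that serve the uptake, export and breakdown of nitrogen compounds, and their intensities were followed across the 4 arrays of the series. These 3 genes, of 5794 features on the array, were picked because their ratios of Ssa4 to Ssa1 were among the lowest measured, so that ratio is given as a description only. All strains were [psi-] derivatives of S. cerevisiae G402 in which the chromosomal SSA1, SSA2, SSA3 and SSA4 genes were deleted. The strains expressed Ssa2, Ssa3 or Ssa4 as sole cytosolic Hsp70-Ssa chaperone from a LEU2 plasmid, and were set against the strain that expressed Ssa1 in the same way. Each plasmid gene was driven by the SSA2 promoter, so the heat-inducible Ssa3 and Ssa4 were made constitutively. Each strain was represented by 1 array with Cy5-labelled RNA pooled before labelling. The deposited description gives 8 pooled extractions of exponentially growing 5 ml cultures, whereas the methods describe another number of extractions and overnight growth. The nitrogen source of the medium is not given in the sources used here, and the growth stage at harvest cannot be told apart from the strain.

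Yeast takes up preferred nitrogen sources such as ammonium and glutamine first, and keeps genes for poorer sources low while these last. This nitrogen catabolite repression acts through GATA-type activators such as Gln3 and Gat1, and single pathways also have activators that answer to their own substrate, such as Put3 for proline and Aro80 for aromatic amino acids. PUT4 encodes the high-affinity proline permease of the plasma membrane. ATO3 encodes a plasma membrane protein thought to export ammonium and is related to the acetate and ammonium transporter encoded by ADY2. ARO9 encodes aromatic aminotransferase II, the enzyme of the first step in the breakdown of tryptophan, phenylalanine and tyrosine.

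The 4 arrays had values for 5776 to 5786 features, and their medians lay between 200.4 and 201.5. Within 2-fold of the Ssa1 intensity lay 96.2% of the features with Ssa2, 95.8% with Ssa3 and 87.8% with Ssa4. SSA2, the only SSA gene with a named feature here, had an intensity of 2505 on the Ssa2 array and of 1.21, 2.38 and 9.01 on the Ssa3, Ssa4 and Ssa1 arrays, so the label of the Ssa2 array could be checked but not those of the others. With 1 array per strain no spread between replicates and no test is available. The number of arrays limits the precision of every ratio, and a feature is counted below only by whether it was past 2-fold (a ratio above 2 or below 0.5).

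PUT4 had an intensity of 534 in Ssa2 cells, 746 in Ssa3 cells and 180.35 in Ssa4 cells, against 1483 in Ssa1 cells. The Ssa1 strain thus had the most signal for the proline permease and the Ssa4 strain the least, with the Ssa2 and Ssa3 strains between them. PUT4 was 8.22-fold lower with Ssa4 than with Ssa1, 2.78-fold lower with Ssa2 and 1.99-fold lower with Ssa3. The ratio of 0.503 in the Ssa3 strain fell just short of 2-fold.

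ATO3 had an intensity of 1469 in Ssa2 cells, 1464 in Ssa3 cells and 383 in Ssa4 cells, against 3291 in Ssa1 cells. Signal for the ammonium exporter was almost equal in the Ssa2 and Ssa3 strains, with Ssa1 above both and Ssa4 below both. ATO3 was 8.58-fold lower with Ssa4 than with Ssa1, 2.24-fold lower with Ssa2 and 2.25-fold lower with Ssa3. It was the only one of the 3 genes past 2-fold in all 3 strains.

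ARO9 had an intensity of 365 in Ssa2 cells, 222 in Ssa3 cells and 46.7 in Ssa4 cells, against 442 in Ssa1 cells. The aminotransferase gene differed from the transporter genes in the Ssa2 strain, where its signal was close to that of the Ssa1 strain. ARO9 was 9.46-fold lower with Ssa4 than with Ssa1, 1.21-fold lower with Ssa2 and 1.99-fold lower with Ssa3. Its Ssa4 intensity was the only value among those of the 3 genes below 100, where 34.1% of the features of that array lay. With an offset of 50 added to both intensities, the ratio of Ssa4 to Ssa1 of ARO9 was 0.197 in place of 0.106. ARO9 is also among the genes for which the study ran RT-qPCR, and those values are not used here.

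**Figure D1:**
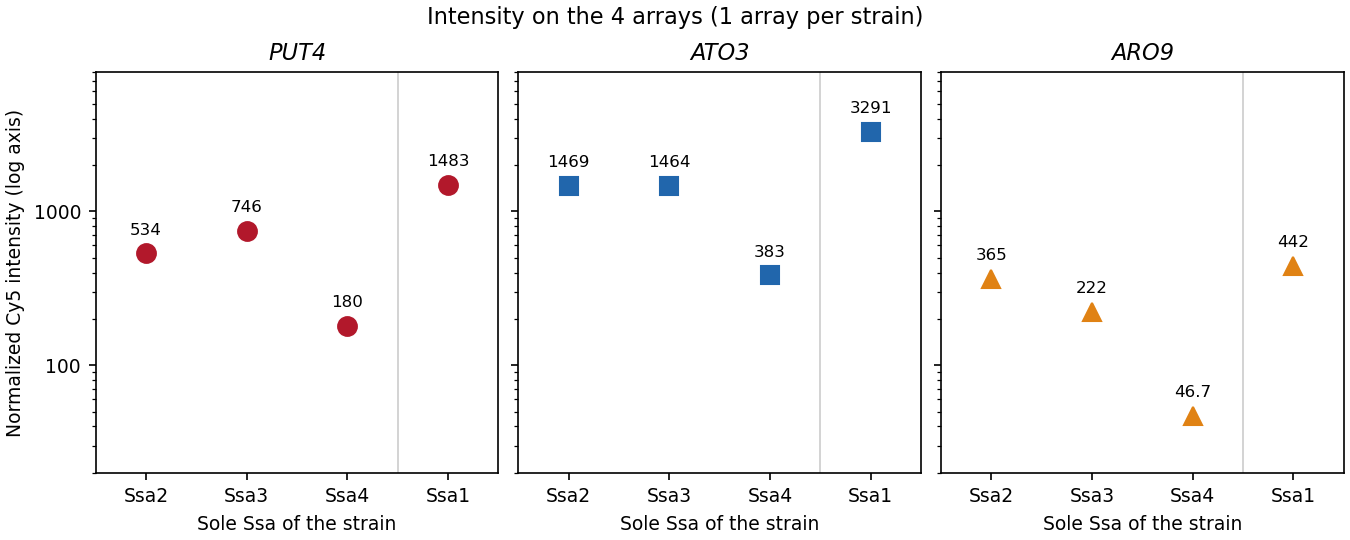
Normalized Cy5 intensity (log axis) of PUT4, ATO3 and ARO9 on the arrays of the Ssa2, Ssa3, Ssa4 and Ssa1 strains, 1 point per array and no error bars since each strain has 1 array. Ssa4 is the lowest and Ssa1 the highest point for each gene, and ARO9 on the Ssa2 array (365) lies close to ARO9 on the Ssa1 array (442).

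By the ratio of Ssa4 to Ssa1, the value that chose them, ARO9, ATO3 and PUT4 were the features ranked 3, 4 and 5 from the lowest of 5776, with ratios of 0.106, 0.117 and 0.122. Just below them were ADH2, the glucose-repressed alcohol dehydrogenase, at 0.0381 and SCJ1, a DnaJ-type chaperone of the endoplasmic reticulum, at 0.0783. The feature just above them was ADY2 at 0.123. Among all features 7.10% were more than 2-fold lower with Ssa4 and 5.12% more than 2-fold higher, an order that turned round where both intensities were 100 or more, with 3.28% lower and 5.91% higher. Nothing is read from the 3 genes being so, since this ratio chose them.

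The other comparisons with Ssa1 share the Ssa1 array with the ratio used for the choice, so a high Ssa1 intensity lowers all 3 ratios of a gene together. With Ssa2, 2.40% of the features were more than 2-fold lower and 1.35% more than 2-fold higher, and PUT4 and ATO3 were among those that were lower. PUT4 ranked 31 and ATO3 89 from the lowest of 5782 features, whereas ARO9 ranked 1451, well inside the bulk of the features. With Ssa3, 1.94% of the features were more than 2-fold lower and 2.23% more than 2-fold higher, and of the 3 genes ATO3 alone was past 2-fold, on the lower side. Its rank from the lowest was 66 of 5779, and ARO9 and PUT4 ranked 116 and 119, where 112 features were past 2-fold. PUT4 and ARO9 were therefore a few places outside the limit. After quantile normalization both were past 2-fold, at 0.458 and 0.471 for PUT4 and ARO9. Both stayed short of 2-fold with equal array medians, at 0.507 and 0.507, and with an offset of 50, at 0.520 and 0.553.

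**Figure D2:**
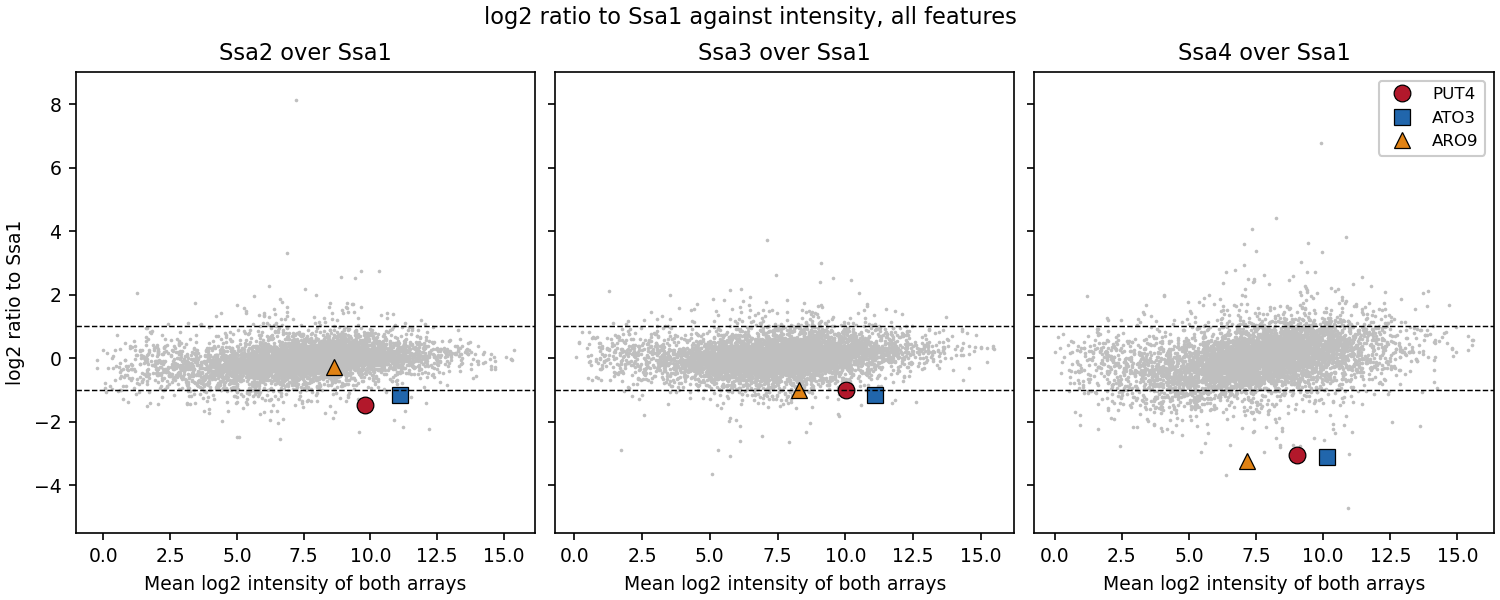
log2 ratio to Ssa1 against the mean log2 intensity of both arrays for all features (grey) for Ssa2, Ssa3 and Ssa4, with PUT4, ATO3 and ARO9 in colour and dashed lines at 2-fold. In the Ssa4 panel the 3 genes lie at log2 ratios of -3.04, -3.10 and -3.24, while in the Ssa2 panel ARO9 lies at -0.27 inside the cloud.

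The Ssa4 strain was also set against the Ssa2 and Ssa3 strains, in comparisons that still share the Ssa4 array with the choice. Against Ssa2, 3.79% of all features were more than 2-fold lower with Ssa4 and 3.17% more than 2-fold higher. ARO9 was 7.83-fold lower there, ATO3 3.83-fold and PUT4 2.96-fold. Against Ssa3, 6.65% of all features were more than 2-fold lower with Ssa4 and 2.74% more than 2-fold higher, and ARO9 was 4.76-fold lower, PUT4 4.14-fold and ATO3 3.82-fold. The 3 genes were thus more than 2-fold lower on the Ssa4 array than on each of the other arrays.

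The comparison of Ssa3 with Ssa2 uses neither the Ssa1 nor the Ssa4 array. None of the 3 genes was past 2-fold in it, where 2.51% of all features were lower and 3.74% higher by more than 2-fold. PUT4 had a ratio of Ssa3 to Ssa2 of 1.40, ATO3 of 0.997 and ARO9 of 0.607. Over all features the 2.5 and 97.5 percentiles of this ratio were 0.4998 and 2.16, with a median of 1.06, so all 3 values lay between them. By this pair the order of the Ssa2 and Ssa3 strains was Ssa3 above Ssa2 for PUT4, almost equal for ATO3 and Ssa2 above Ssa3 for ARO9, with each difference smaller than 2-fold.

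The features next to each gene on the spot grid that the feature names imply were also read. In the Ssa4 strain the 6 neighbours of PUT4 had log2 ratios to Ssa1 between -0.61 and 0.42, those of ATO3 between -1.23 and 0.72 and those of ARO9 between -0.16 and 0.98. Their medians were -0.01, -0.36 and 0.28. The neighbours of ATO3 thus tended to be lower with Ssa4, and those of ARO9 higher. That the 3 genes lie below their neighbours there was fixed by their choice. After subtraction of these medians the ratios of Ssa4 to Ssa1 were 0.122 for PUT4, 0.150 for ATO3 and 0.0870 for ARO9. In the Ssa3 strain the neighbours of PUT4 had a median log2 ratio of 0.24, and its ratio after subtraction was 0.426, past 2-fold.

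**Figure D3:**
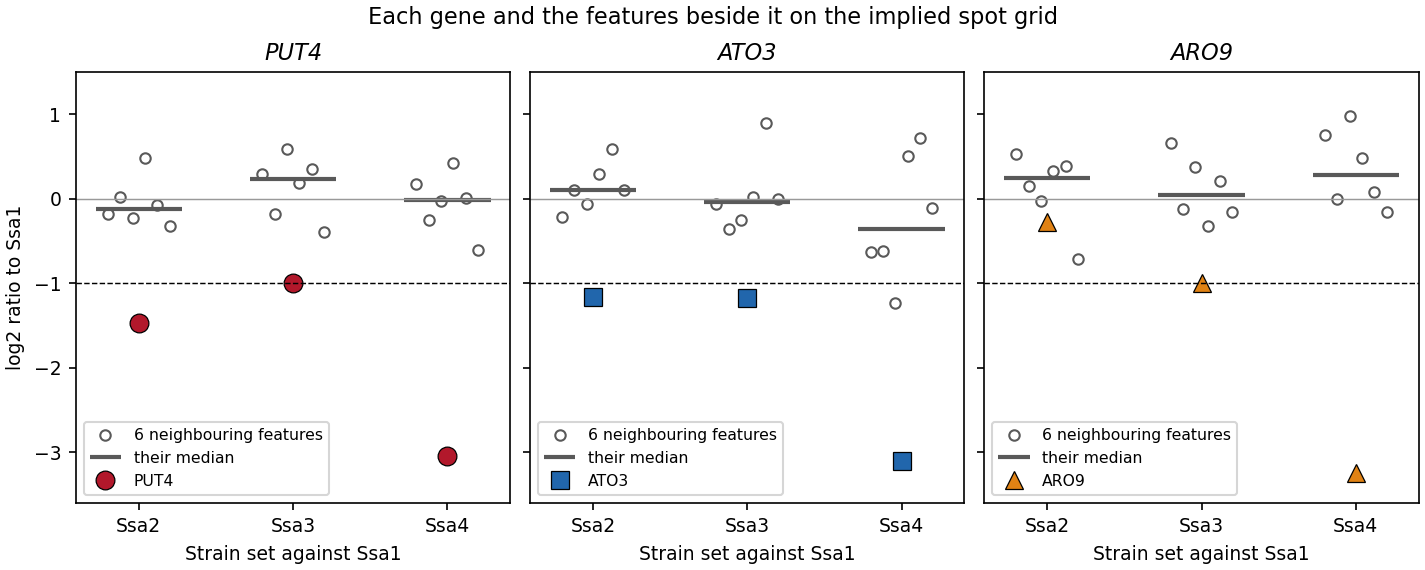
log2 ratio to Ssa1 of PUT4, ATO3 and ARO9 (filled) and of the 6 features beside each on the implied grid (open circles, with their median as a bar) for Ssa2, Ssa3 and Ssa4. At Ssa4 the neighbour medians are -0.01 for PUT4, -0.36 for ATO3 and 0.28 for ARO9, and the low place of the filled points there was fixed by the choice of the genes.

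The 3 genes were then compared with all features by their pattern, taken as the 3 log2 ratios to Ssa1, with the root mean square difference as the measure of likeness over 5770 other features with 4 values. Since the ratio of Ssa4 to Ssa1 is part of the pattern, the nearest features necessarily also had a low value there. The pattern of PUT4 was closest to that of ATO3, at a difference of 0.21 log2 units. It was followed by MLS1, the malate synthase of the glyoxylate cycle, at 0.28, and by ADY2 at 0.37. Then came YAT2, a carnitine acetyltransferase, at 0.44 and PDH1, a gene of propionate breakdown, at 0.45. ATO3 had ADY2 nearest, at 0.17, then PUT4 at 0.21 and MLS1 at 0.28, with PDH1 and YAT2 at 0.42 and 0.45. By this measure both transporter genes had ADY2, MLS1, YAT2 and PDH1 among the nearest. By Pearson's correlation over the 4 log2 intensities, which ignores the size of a change, they shared none of their 5 nearest named features. PUT4 then had MMS21, BAT2, YPK2, WTM1 and ADH2 nearest, and ATO3 had MIP1, BIO2, SSB2, CRC1 and PLB2. Unnamed features were left out of these lists, and their place by correlation was not recorded. The lowest correlation in the lists was 0.9993 for PUT4 and 0.9973 for ATO3, so the listed features are nearly tied.

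ARO9 stood further apart. Its nearest feature was SIM1, which encodes a cell wall protein of the SUN family, at 0.37, followed by ADY2 at 0.43, by RFC1, a subunit of the replication factor C clamp loader, at 0.46, by SCJ1 at 0.47 and by PDH1 at 0.48. ATO3 was number 8 in likeness to ARO9, at 0.53, and PUT4 number 19, at 0.70. SIM1 had intensities of 1075, 785 and 182 on the Ssa2, Ssa3 and Ssa4 arrays, against 1204 on the Ssa1 array. Like ARO9 it differed little between the Ssa2 and Ssa1 strains and was lowest in the Ssa4 strain.

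ADY2, the relative of ATO3, had intensities of 3027 in Ssa2 cells, 2299 in Ssa3 cells and 703 in Ssa4 cells, against 5700 in Ssa1 cells. Its ratios to Ssa1 were 0.531, 0.403 and 0.123 for Ssa2, Ssa3 and Ssa4, against 0.446, 0.445 and 0.117 for ATO3. Both transporter genes were thus lowest in the Ssa4 strain and highest in the Ssa1 strain. Whether the probes of these related genes also bind each other's transcript was not tested.

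**Figure D4:**
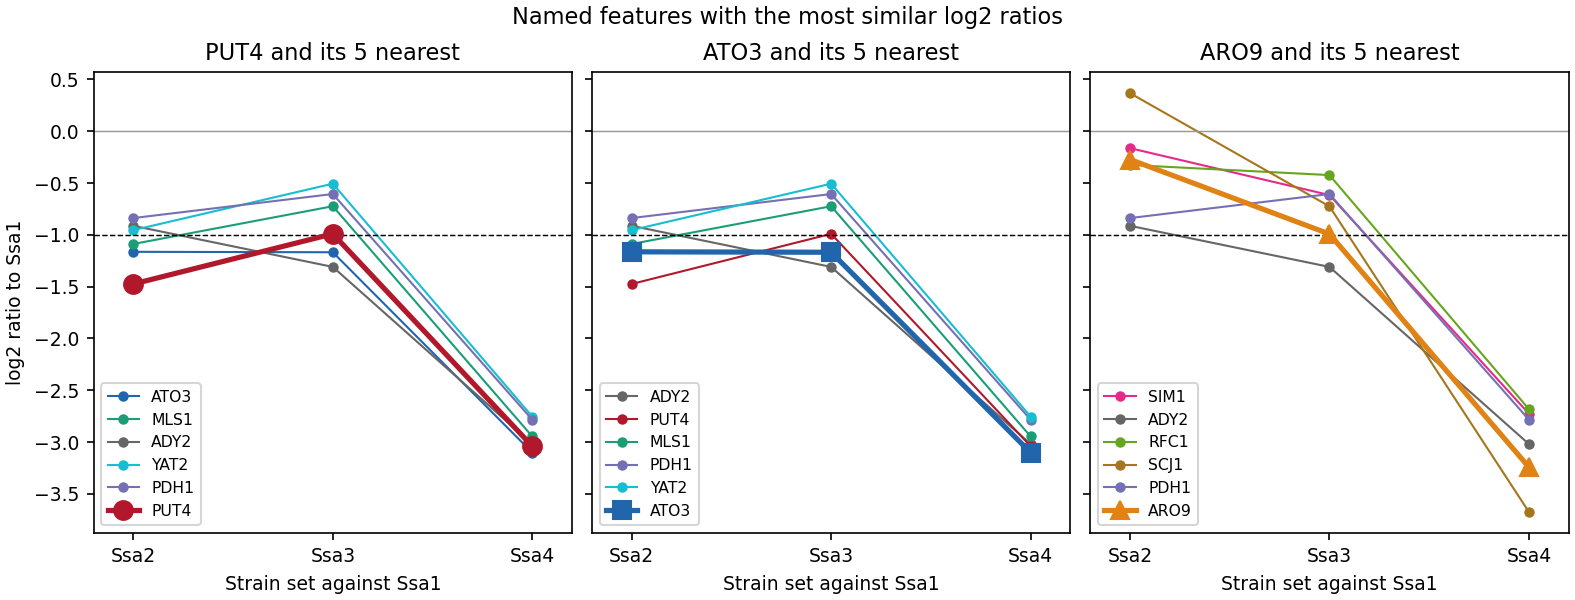
log2 ratio to Ssa1 for Ssa2, Ssa3 and Ssa4 for PUT4, ATO3 and ARO9 (thick lines) and for the 5 named features most like each (thin lines), with a dashed line at 2-fold lower. PUT4 and ATO3 run with MLS1, ADY2, YAT2 and PDH1, and ARO9 starts higher, at -0.27 in the Ssa2 strain, like SIM1 and RFC1.

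For the wider pathways, 92 genes of nitrogen uptake, use and regulation were listed, of which 27 had a feature that could be named. Names came from a table of genes that the study lists for their change, and 913 of the 946 named features were past 2-fold from Ssa1 in at least 1 strain. The other 65 genes were not analysed here, so the counts below say nothing about the pathways as a whole. Of the 24 named genes other than PUT4, ATO3 and ARO9, 14 were more than 2-fold lower with Ssa4 than with Ssa1, 4 were more than 2-fold higher and 6 were neither. With PUT4, ATO3 and ARO9 counted in, 17 were lower and 4 higher, and with an offset of 50 the counts were 9 lower and 4 higher. Over all features the shares past 2-fold were 7.10% lower and 5.12% higher. The median ratio to Ssa1 of the 24 genes was 0.445 for Ssa4, 0.907 for Ssa3 and 0.670 for Ssa2, and that of all features was 0.993, 1.03 and 0.985. Since the named genes were listed for their change, neither their counts nor their medians can be set against those of all features. None of the 13 listed regulators, GLN3, GAT1, PUT3 and ARO80 among them, had a named feature.

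In the proline pathway, the named enzymes downstream of the permease differed in their likeness to PUT4. PUT1, the proline oxidase of the first step, had intensities of 122, 116 and 93.4 on the Ssa2, Ssa3 and Ssa4 arrays, against 228 on the Ssa1 array. Like PUT4 it was highest in the Ssa1 strain and lowest in the Ssa4 strain, where it lay below 100. PUT1 was past 2-fold only in the Ssa4 strain, at a ratio of 0.41. PUT2, which completes the conversion to glutamate, had intensities of 87.0, 267 and 108 on the Ssa2, Ssa3 and Ssa4 arrays, against 93.5 on the Ssa1 array. PUT2 was more than 2-fold higher in the Ssa3 strain, with a ratio of 2.86, and in the Ssa4 strain, where the permease gene was lowest, its ratio was 1.15. On all but the Ssa3 array PUT2 lay near an intensity of 100.

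In the breakdown of aromatic and branched-chain amino acids, ARO10 and BAT2 were lowest in the Ssa4 strain, as ARO9 was. ARO10, the phenylpyruvate decarboxylase that acts on the product of the aminotransferase step, had intensities of 2464, 2244 and 978 on the Ssa2, Ssa3 and Ssa4 arrays, against 3493 on the Ssa1 array, and a ratio of 0.28 in the Ssa4 strain. BAT2, the cytosolic branched-chain aminotransferase, had intensities of 864, 1046 and 484, against 1520 on the Ssa1 array, and a ratio of 0.318 in the Ssa4 strain. SFA1, an alcohol dehydrogenase that can act at the last step, went the other way, with a ratio of 2.99 in the Ssa4 strain. PDC6, a minor pyruvate decarboxylase, was past 2-fold only in the Ssa3 strain, at 2.35. TRP4, an enzyme of tryptophan synthesis rather than breakdown, had a ratio of 0.383 in the Ssa4 strain. Its intensity there was 58.7, below 100, against 153 on the Ssa1 array.

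Of the enzymes that move ammonium in and out of glutamate, GDH2 was named, the glutamate dehydrogenase that releases ammonium. GDH2 had intensities of 3409, 3384 and 847 on the Ssa2, Ssa3 and Ssa4 arrays, against 3619 on the Ssa1 array. Its difference lay in the Ssa4 strain, with a ratio of 0.234, while the Ssa2 and Ssa3 strains were at 0.942 and 0.935. ATO3, by contrast, was already more than 2-fold lower in the Ssa2 and Ssa3 strains.

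The amino acid permeases besides PUT4 split in direction. DIP5, the permease for glutamate and aspartate, TAT1, for tyrosine and branched-chain amino acids, and the arginine permease genes CAN1 and ALP1 had ratios of 0.383, 0.463, 0.378 and 0.2304 in the Ssa4 strain, of which CAN1 and ALP1 rest on low intensities, at most 12.1 and 30.3 on any array. The methionine permease genes MUP1 and MUP3 were higher, at 3.33 and 5.66 in the Ssa4 strain and at 2.54 and 2.07 in the Ssa2 strain. GAP1, the general amino acid permease, which like PUT4 is under nitrogen catabolite repression, had intensities of 84.9, 162 and 108 on the Ssa2, Ssa3 and Ssa4 arrays, against 169 on the Ssa1 array. GAP1 was not past 2-fold in any strain, though its ratio of 0.504 in the Ssa2 strain fell just short. Unlike PUT4 it was lowest in the Ssa2 strain, but only by 84.9 against 108 in the Ssa4 strain.

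Genes for the use of allantoin and urea, other poor nitrogen sources, differed among themselves in the order of the strains. DAL7, a malate synthase of allantoin breakdown, had low intensities of 21.8, 23.2 and 26.8 on the Ssa2, Ssa3 and Ssa4 arrays, against 64.8 on the Ssa1 array. All lay below 100, and DAL7 was more than 2-fold lower in all 3 strains by nearly the same amount. DAL2, the allantoicase, was likewise even, with ratios of 0.506, 0.513 and 0.491 for Ssa2, Ssa3 and Ssa4. DUR3, the urea permease, had ratios of 0.485, 0.88 and 0.326, the order also seen for PUT4, at low intensities of at most 65.0. DAL4, the allantoin permease, had a ratio of 1.997 in the Ssa4 strain, just short of 2-fold.

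Among the remaining listed genes, OPT1, a peptide and glutathione transporter, was higher in every strain than in the Ssa1 strain, with ratios of 2.35, 2.85 and 5.40 for Ssa2, Ssa3 and Ssa4. OPT2, its relative, was past 2-fold in none, with 0.504, 1.42 and 0.647, at low intensities of at most 41.8 on any array. The asparaginase genes ASP3-1 and ASP3-3 had ratios of 0.426 and 0.871 in the Ssa4 strain and of 0.491 and 0.444 in the Ssa2 strain. The ratios of ASP3-3 rest on low intensities, at most 9.28 on any array, whereas ASP3-1 had 136 on the Ssa1 array. ASP3-1 and ASP3-3 are near-identical copies, so their signals cannot be assigned to single genes. Why the signals differ was not tested.

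Of the 24 protein-coding genes that lie within 4 places of PUT4, ATO3 or ARO9 in the R64 gene order, 4 had a named feature. Of all features 16.3% had a name. Since names came from genes listed for their change, a named gene being past 2-fold was largely fixed by the naming. Nothing is read from it, and the unnamed genes have no value here. YHR138C, which lies directly beside ARO9, had ratios to Ssa1 of 1.001, 1.95 and 2.60 for Ssa2, Ssa3 and Ssa4, and so was past 2-fold in the opposite direction in the Ssa4 strain. REV1, a DNA repair gene near PUT4, had ratios of 4.83, 4.49 and 5.18, and COI1, near ATO3, had 1.30, 1.68 and 2.32. The feature named YOR343W-B, 4 places from PUT4, was lower, with 0.688, 0.571 and 0.213. Whether its probe also binds transcripts from other loci was not tested. YHR138C, REV1, COI1 and YOR343W-B were named for their position after their values were seen.

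**Figure D5:**
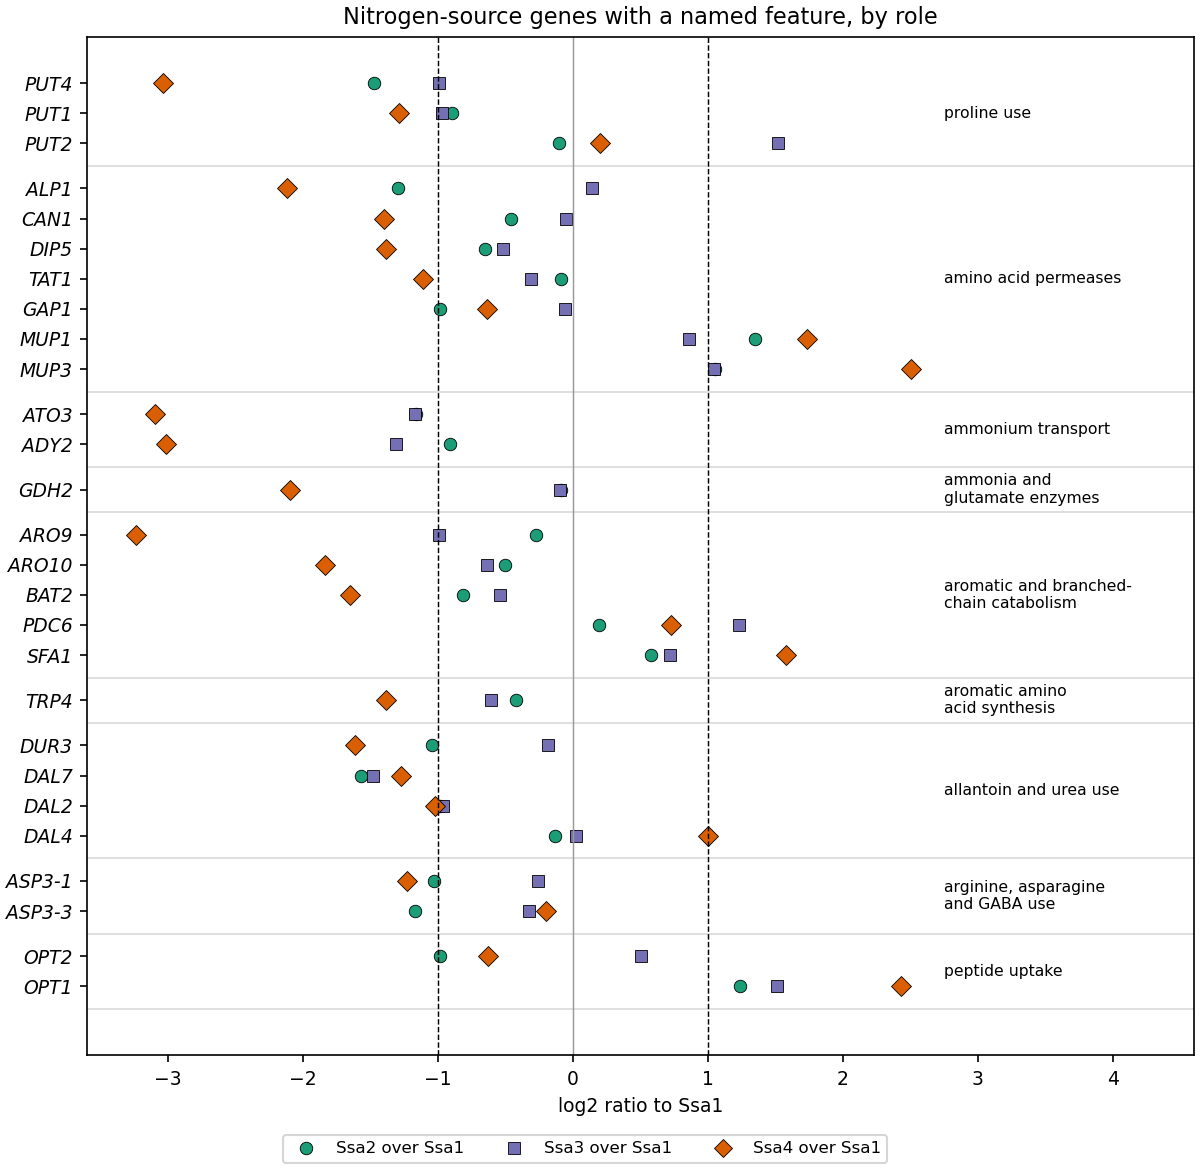
log2 ratio to Ssa1 of the 27 listed nitrogen-source genes with a named feature, in the Ssa2 (circles), Ssa3 (squares) and Ssa4 (diamonds) strains, grouped by role, with dashed lines at 2-fold. PUT4, ATO3, ADY2 and ARO9 are the genes with an Ssa4 diamond at or beyond -3, while the Ssa4 diamonds of MUP1, MUP3, OPT1 and SFA1 lie beyond 2-fold on the higher side.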

How the data were processed

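The authors hybridized Cy5-labelled amplified RNA to a spotted oligonucleotide chip, quantified the median foreground per spot, kept spots above the blanks, removed the mean background signal and scaled every array to its own median. The deposited intensity values are on a linear scale for 5794 features and were used as they are. The files do not pair features with genes. Gene names were taken from a supplementary table of the paper, whose 955 rows used here each matched exactly 1 feature in all 4 values (relative tolerance 1e-05, with 0 matches when the columns were shifted by 1, 2 or 3 places), giving 946 names, of which 935 loci are in the R64 gene table. Ratios were formed without an offset or a filter. The members and lists were chosen with earlier results of these data known. Named are PUT4, ATO3 and ARO9, the listed genes with a name, and the 5 named features most like each of the 3 genes. ADH2, SSA2, the named genes beside the 3 genes on the chromosome (YHR138C, REV1, COI1 and YOR343W-B) and the genes nearest by correlation were named outside this rule. The spot grid of 32 blocks is implied by the feature names and not stated, neighbours are the features 1, 14 and 15 positions away, and this distance had been picked on these data. The planned search of promoter motifs was not run, since no sequences were used here. The counting step was run on simulated data, where 200 of 200 changed features were recovered in the comparison of Ssa4 with Ssa1. That run checked the counting step only, and recovery in the deposited data was not tested. The software was pandas 2.3.3, numpy 2.4.6, statsmodels 0.14.6 and matplotlib 3.10.9 under Python 3.11.15.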

Additional observations from a re-analysis of the deposited data

How the results depend on the processing

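The ratios of PUT4, ATO3 and ARO9 were recalculated with equal array medians, quantile normalization, a lowess curve subtracted (fraction 0.4), an offset of 50, a 3-fold threshold, ratios rounded to 2 decimals and the neighbour median subtracted. Of the 126 outcomes, 114 kept their side of the threshold and none changed direction past it. The 3-fold and rounded settings left each ratio as deposited and moved only the threshold. A ratio that was not past 2-fold could not be past 3-fold. The 114 include 21 for Ssa4 over Ssa1, the ratio that chose the genes, so the count is no measure of robustness. The ratios of Ssa4 to Ssa1 stayed past the threshold throughout, at 0.107 to 0.150 for PUT4, 0.0977 to 0.150 for ATO3 and 0.0870 to 0.197 for ARO9, whose highest value came with the offset. The ratios of Ssa3 to Ssa1 of PUT4 and ARO9, 0.503 and 0.503, came past 2-fold with quantile normalization (0.458 and 0.471), the lowess curve (0.450 and 0.487), the neighbour median (0.426 and 0.488) and when rounded to 2 decimals with a rounded ratio of exactly 0.5 or 2 counted as past the threshold. At 3-fold, PUT4 (0.360) and ATO3 (0.446) in Ssa2 over Ssa1, ATO3 (0.445) in Ssa3 over Ssa1 and PUT4 (0.338) in Ssa4 over Ssa2 were no longer past the threshold.

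The background counts depended on the setting. With an offset of 50, a 3-fold threshold or a limit of 100 on both arrays, the features lower in the Ssa4 strain numbered 115, 104 and 120, against 410 as deposited. For Ssa2 they numbered 37, 24 and 38, against 139, and for Ssa3 38, 16 and 49, against 112, or 74 with the neighbour median. Higher features numbered 193, 82 and 216 in the Ssa4 strain under these settings, against 296, so that lower features outnumbered higher ones as deposited and at 3-fold, and higher ones outnumbered lower ones with the offset and the limit of 100. They numbered 39, 24 and 38 in the Ssa2 strain under the 3 settings, against 78, and 64, 26 and 74 in the Ssa3 strain, against 129. Of the listed genes 9 were lower in the Ssa4 strain with the offset and 9 at 3-fold, against 17. Pearson's correlation over the 4 arrays, which ignores the size of a change, was also used as the measure of likeness. By it, 0 of the 5 nearest named features were shared for each of the 3 genes. PUT4 and ATO3 then had none in common. With features of at least 100 on the Ssa1 array all 5 were shared. That outcome was fixed, since all the nearest genes already had Ssa1 intensities above 100. On the Ssa4 array RFC1, SCJ1 and MLS1 lay below 100, at 19.3, 23.2 and 79.9. No paired analysis was possible because each strain has 1 array.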
